A study of Mus musculus with 12 samples.

Results

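The respiratory chain genes described here encode complexes II, III, IV and V of the inner mitochondrial membrane and cytochrome c, which carries electrons between complexes III and IV. They were taken from the count table by symbol: protein-coding genes named Sdha to Sdhd, those starting with Uqcr, Cox4 to Cox8 or Atp5, and Cyc1, Cycs, mt-Cytb, mt-Co1, mt-Co2, mt-Co3, mt-Atp6 and mt-Atp8. This gave 55 members of 48709 gene rows: 4 in complex II, 10 in complex III, 21 in complex IV, 19 in complex V and cytochrome c itself. The samples were neutrophils sorted as Ly6G-high, Ly6C-intermediate, CD11b+ and CD45+ cells from young adult male C57BL/6N mice with no transgene. Control splenic neutrophils came from the spleens of untreated animals (n = 3), and liver neutrophils came from animals given 1 intraperitoneal injection of carbon tetrachloride (CCl4, a liver toxin) in corn oil, 24 hours (n = 4) or 72 hours (n = 5) before. No liver without injury and no spleen after CCl4 was among the samples, so the organ and the injury cannot be told apart in either comparison with the spleen, and both of those comparisons used the same 3 spleen libraries. The labels number the samples but do not say that each came from its own animal, and p-values measure the spread between these samples only.

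Complex II, or succinate dehydrogenase, oxidizes succinate in the citrate cycle and passes electrons to ubiquinone. Complex III (the cytochrome bc1 complex) moves them on to cytochrome c, complex IV (cytochrome c oxidase) reduces oxygen, and complex V (ATP synthase) uses the resulting proton gradient to make ATP. Complex II is built from nuclear genes alone, whereas the other 3 combine nuclear subunits with subunits encoded in mitochondrial DNA. Mature neutrophils hold few mitochondria and are known for making most of their ATP by glycolysis.

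The values were shallow for these genes, and their strand was uncertain. Reads assigned to genes came to 1267089 to 3017403 counts per library, of which the 55 members held 1233 to 3181, and 1 count was worth 0.31 to 0.73 CPM (counts scaled to the library total and by trimmed means of M values, TMM). Only 2.71% to 3.18% of the uniquely aligned reads fell on a gene. The 20 genes of highest count each shared exon bases with a gene on the opposite strand, and genes with such an overlap held 85.0% of the counts. The same was seen among the members: 13 of the 55 overlapped an opposite-strand exon, and these 13 held 75.3% of the members' counts. In the mitochondrial genome mt-Nd6, a complex I gene on the minus strand, had a mean of 871 CPM, or 1679 CPM per kilobase, while mt-Co1 on the plus strand had 113 CPM, or 73.1 CPM per kilobase. The kit kept strand information and the strand option of the counter is not given in the sources used here, so sense and antisense reads of a member cannot be told apart. Each value below is therefore a count assigned to a gene model and is not read as the level of its sense mRNA.

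The neutrophil markers fixed for the identity check (9 genes, all tested) were present in every group. They summed to 1866 to 7475 CPM in the spleen, 1163 to 2750 CPM at 24 hours and 2094 to 2803 CPM at 72 hours. Against the spleen 3 were called lower at 24 hours and 4 at 72 hours, and 0 were called higher. S100a8, S100a9 and Lcn2 were lower at both times. Ly6g, the gene of the sorting marker Ly6G, was lower at 72 hours (log2 fold change -2.69). Only Csf3r was called between the liver time points, higher at 72 hours. Markers of immature neutrophils (9 genes, among them Ltf, Ngp and Camp, which encode secondary granule proteins) summed to 2568 to 4461 CPM in the spleen, 875 to 1279 CPM at 24 hours and 973 to 1524 CPM at 72 hours, with Mpo and Elane at 0 in the spleen and at 24 hours. Of the immature markers 6 were tested, and 4 were called lower in each comparison with the spleen. Ltf, Ngp and Camp averaged 1186, 1375 and 118 CPM in the spleen and 2.10, 28.8 and 0 CPM at 24 hours. At 72 hours they averaged 6.75, 10.6 and 0.81 CPM, so that the sums in the liver groups came mostly from other markers of the list. Summed hepatocyte markers (8 genes) were 2.32 to 6.11 CPM in the spleen, 14.1 to 19.8 CPM at 24 hours and 3.24 to 24.5 CPM at 72 hours, with Ttr and Cyp3a11 at 0 in all libraries. Of the 3 hepatocyte markers tested, Apoa2 was called higher at 24 hours than in the spleen (mean 16.9 against 3.90 CPM), beside 5.35% of all tested genes. Summed macrophage markers (7 genes) were 89.9 to 154 CPM in the spleen, 134 to 204 CPM at 24 hours and 121 to 185 CPM at 72 hours. Summed B cell markers (4 genes) were 44.2 to 54.0, 25.5 to 61.2 and 24.0 to 45.2 CPM. Of these 2 lists 3 and 1 markers were tested, and 0 were called in any comparison. The part of neutrophil maturity and of RNA from liver or other cells in the differences below was not tested. In these bulk samples fewer cells of a type and less RNA per cell cannot be told apart. Spleen libraries 1 and 2 lay close together, with a ratio of chi-square to degrees of freedom of 2.34. Library 3 gave 30.7 and 34.0 against them. Pairs within the liver groups ranged from 5.63 to 31.4, so that 2.34 was the lowest ratio of any pair within a group. The labels do not say whether spleen libraries 1 and 2 came from separate animals.

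Of the 55 members, 52 had a count in some library and 45 passed the filter of more than 1 CPM in at least 3 libraries. The 45 were 4 of 4 in complex II, 10 of 10 in complex III, cytochrome c, 17 of 21 in complex IV and 13 of 19 in complex V. Cox7b2, Cox8c and Atp5s had no count, and Cox8b, mt-Co3, Atp5g1, Atp5k, Atp5mpl, mt-Atp6 and mt-Atp8 were too low to be tested. Only 14 members were above 1 CPM in all 12 libraries, whereas 5 needed the spleen libraries to pass (Atp5g2, Cox7b, mt-Co2, Uqcr11 and Uqcrfs1) and 9 needed the 72-hour libraries, which bears on any count taken over the tested members. Per kilobase of exon, the highest mean levels were those of Atp5f1 (119 CPM per kilobase), mt-Co1 (73.1), mt-Cytb (53.3), Cox7c (28.9) and Cox6c (25.1). The heat map of all members shows CPM, which is not divided by length.

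**Figure D1:**
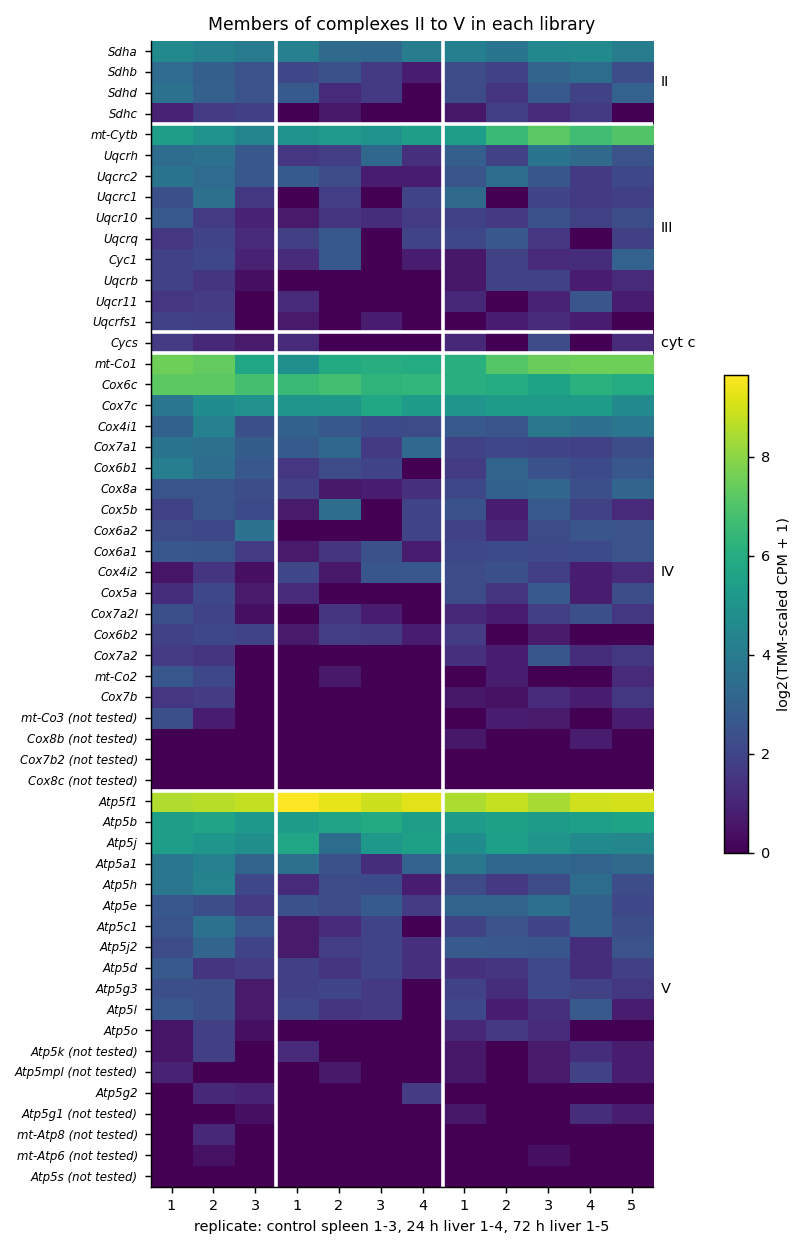
Log2(TMM-scaled CPM + 1) of the 55 members (rows, grouped by complex and ordered by mean level) in the 12 libraries (columns: control spleen 1 to 3, 24-hour liver 1 to 4, 72-hour liver 1 to 5). Atp5f1 read 338 CPM or more and Cox6c 47.7 CPM or more in every library, and most members were under 10 CPM.

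In 24-hour neutrophils 5 member genes were called lower than in control splenic neutrophils, and 0 were called higher. They were mt-Co1, Cox6b1 and Cox6a2 of complex IV and Atp5c1 and Atp5h of complex V. The 5 called members were 5 of 45 tested, beside 9.75% of all 12488 tested genes called in either direction, 4.40% called lower and 5.35% called higher. A call needed an adjusted p under 0.05 in edgeR's quasi-likelihood test and a log2 fold change of 0.5 or more in size. The share of called members thus lay near the share of all genes called in either direction and above the share called lower, on calls that depended on single libraries. No member of complex II, complex III or cytochrome c was called.

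mt-Co1 encodes the catalytic subunit of complex IV that binds the oxygen-reducing heme and copper centre. It read 185, 160 and 50.2 CPM in the 3 spleen libraries and 27.8, 58.2, 62.9 and 59.8 CPM at 24 hours. The third spleen library thus lay among the 24-hour values, while the first and second spleen libraries lay well above them. The log2 fold change was -1.34 (SE 0.38, adjusted p = 0.029). Of the 12 fits with a library removed, 5 did not call mt-Co1, with an adjusted p of up to 0.17. It was not called with limma-voom either, the method the authors used (adjusted p = 0.10). mt-Co1 shares 3 bases with mt-Ts1, a tRNA gene on the other strand.

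Cox6b1, the common isoform of a complex IV subunit on the intermembrane side, read 16.7, 10.2 and 5.15 CPM in the spleen and 1.89, 3.60, 2.83 and 0 CPM at 24 hours, from 16 to 36 counts against 0 to 6. The groups did not overlap, and the log2 fold change was -2.28 (SE 0.67, adjusted p = 0.032). At 72 hours Cox6b1 read 2.17, 7.60, 4.33, 3.47 and 5.19 CPM, overlapped both other groups and was not called against either. Cox6a2, known as the heart and skeletal muscle isoform of subunit VIa, read 3.71, 3.26 and 11.9 CPM in the spleen, was at 0 in 3 of the 24-hour libraries and read 2.92 CPM in the fourth. Its log2 fold change was -3.12 (SE 0.96, adjusted p = 0.043), and 70 of its 680 exon bases overlap Itgad, an integrin gene on the opposite strand. The spleen libraries held 8 to 37 counts of Cox6a2 and the 24-hour libraries 0 to 4.

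Atp5c1 encodes the gamma subunit, the central shaft of ATP synthase, and Atp5h encodes subunit d of its peripheral stalk. Atp5c1 read 4.64, 11.6 and 5.15 CPM in the spleen and 0.63, 1.20, 2.83 and 0 CPM at 24 hours, and the groups did not overlap (log2 fold change -2.56, SE 0.73, adjusted p = 0.029). Atp5h read 13.0, 18.9 and 3.22 CPM in the spleen and 1.26, 3.60, 3.54 and 0.73 CPM at 24 hours. The groups of Atp5h overlapped through the third spleen library (log2 fold change -2.31, SE 0.68, adjusted p = 0.034). At 24 hours neither gene had more than 6 counts in a library. Without spleen library 1, 2 or 3 the numbers of called members were 1, 0 and 5, and without each 24-hour library in turn 1, 2, 5 and 1 were called. The 5 without spleen library 3 held Uqcrb of complex III in place of Cox6a2, and the 1 without 24-hour library 1 was Sdhd of complex II, called lower. With the genes that have no gene on the opposite strand fitted alone, which leaves out mt-Co1 and Cox6a2, 0 members were called, beside 6.32% of all genes in that fit.

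**Figure D2:**
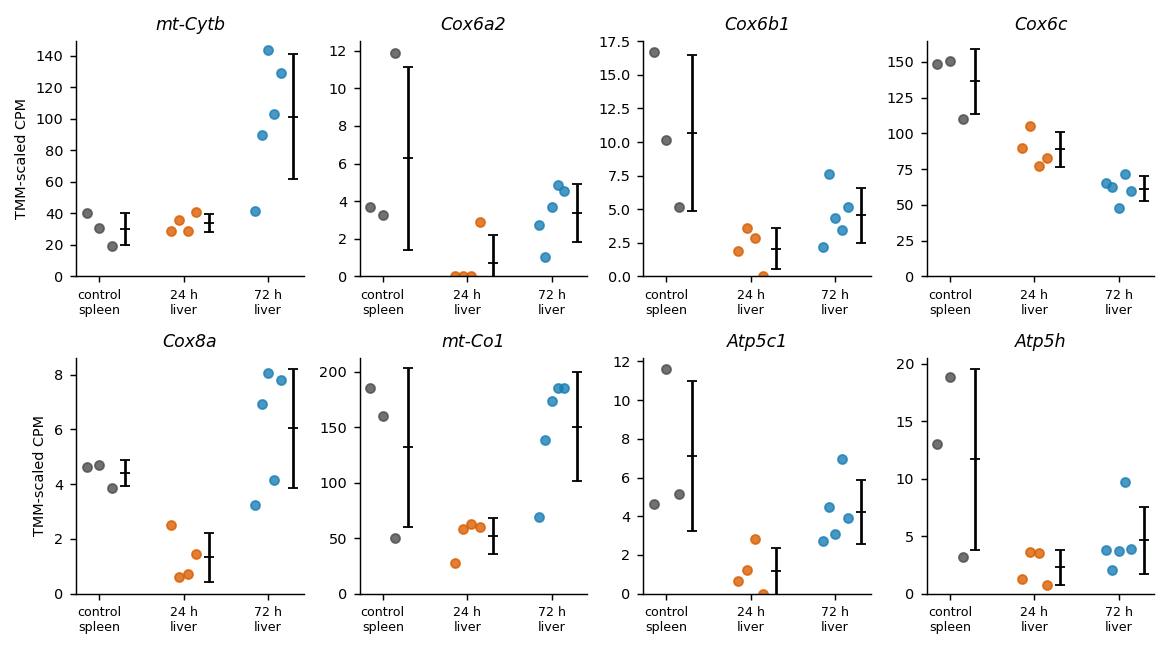
TMM-scaled CPM of the 8 members called in any comparison, by group, with 1 point per library and the mean and SD beside the points (3 spleen, 4 24-hour and 5 72-hour libraries). The 24-hour values of Cox6b1, Atp5c1 and Cox6a2 lie under all 3 spleen values, and the 72-hour values of mt-Cytb lie above all spleen and 24-hour values.

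The promoters of the nuclear genes that were lower at 24 hours are shown because these genes were called and because nuclear respiratory factor 1 and GA-binding protein are known activators of respiratory chain genes. RefSeq windows (GRCm38.p6) matched 35 of the 49 nuclear members by symbol, among them Cox6b1, Atp5c1 and Atp5h. Cox6a2 had no window. The 250 bases before the start site follow, 5′ to 3′ on the gene's strand, with matches on either strand to the 12-letter consensus of nuclear respiratory factor 1 or to CCGGAAG (GA-binding protein) in capitals.
Atp5c1, chr2:10080433-10080682, minus strand: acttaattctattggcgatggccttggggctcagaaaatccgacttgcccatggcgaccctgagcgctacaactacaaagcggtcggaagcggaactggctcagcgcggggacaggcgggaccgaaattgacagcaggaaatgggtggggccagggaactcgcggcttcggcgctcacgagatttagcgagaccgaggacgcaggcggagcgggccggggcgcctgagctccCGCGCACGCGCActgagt
Cox6b1, chr7:30626115-30626364, minus strand: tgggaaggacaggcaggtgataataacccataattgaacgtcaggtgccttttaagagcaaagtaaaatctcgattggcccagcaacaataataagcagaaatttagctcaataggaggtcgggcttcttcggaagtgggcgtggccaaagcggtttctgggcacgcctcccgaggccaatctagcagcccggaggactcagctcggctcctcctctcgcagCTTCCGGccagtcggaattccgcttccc
Atp5h, chr11:115419920-115420169, minus strand: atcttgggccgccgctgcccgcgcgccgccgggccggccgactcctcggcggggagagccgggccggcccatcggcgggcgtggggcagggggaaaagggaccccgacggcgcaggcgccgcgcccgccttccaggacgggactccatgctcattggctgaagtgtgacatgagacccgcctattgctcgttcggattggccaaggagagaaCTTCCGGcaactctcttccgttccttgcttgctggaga

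Atp5c1 held a match to the nuclear respiratory factor 1 consensus, and Cox6b1 and Atp5h each held CCGGAAG. The window of Cox8a, a nuclear member called only between the liver time points, held neither motif and is not printed. Atp5c1 had a second annotated start, whose window, chr2:10080511-10080760, held neither. Over the 38 windows of members, 7.89% held the nuclear respiratory factor 1 consensus and 23.7% held CCGGAAG, beside 0.998% and 6.91% of all 32851 windows of the same length. Sdhd and Atp5g2, neither of which was called, held the former as well, and Sdhd and Cox6a1 were among the other 7 genes with CCGGAAG. Gabpa, which encodes the DNA-binding subunit of GA-binding protein, read a mean of 54.7 CPM in the spleen and 25.9 CPM at 24 hours (log2 fold change -1.07, SE 0.33, adjusted p = 0.041). It shares 397 exon bases head to head with Atp5j, the gene of coupling factor 6, so that reads of the pair cannot be told apart there.

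Beyond the called genes, the 24-hour values of the members were mostly on the low side. In a fit without a filter, 43 of the 52 members with a count had a log2 fold change below 0 (82.7%), beside 55.9% of all 20019 genes with a count. Of these 52, 14 had at most 3 counts in every library of 1 of the groups and 6 in both, and fitted values of such genes depend on the prior count. With a group of that kind set to the level of 3 counts per library, the median over the members was -0.19 against -1.36 as fitted. For the 45 tested members, 37 had a log2 fold change below 0 in the filtered fit, beside 58.7% of all tested genes and 65.7% of those under 10 CPM. An unadjusted p under 0.05 was found for 21 tested members (26.2% of all tested genes). Their values did not overlap in 13 tested members: 11 were lower (13.0% of all tested genes were) and 2 were higher (9.76%). The lower ones were Sdhb, Sdhc, Uqcrb, Cox6a2, Cox6b1, Cox6b2, Cox6c, Cox8a, Atp5c1, Atp5j2 and Atp5o, and the higher ones were Cox7c and Atp5f1.

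The complexes differed in how far their medians lay from that of all tested genes. At 24 hours against the spleen the median log2 fold change of tested members was -1.52 for complex II, -1.48 for complex III, -1.34 for complex IV and -0.55 for complex V, beside -0.23 for all tested genes and -0.50 for those under 10 CPM. With the low groups at their bound, medians were taken over all 4, 10, 19 and 18 members with a count. They were -0.97, -0.14, -0.48 and 0, against -1.54, -1.50, -1.35 and -0.97 in the fit without a filter. The order of complexes III and IV thus changed. In complex V, 5 of the 18 had at most 3 counts per library in both groups and were set to 0. At 72 hours against the spleen the medians of tested members were -0.42, 0.08, -0.25 and -0.23, beside -0.02 for all tested genes. From 24 to 72 hours they were 0.95, 1.02, 0.98 and 0.32, beside 0.18 for all tested genes and 0.38 for those under 10 CPM. Over the members with a count they were 0.95, 1.02, 1.11 and 0.72 in the fit without a filter and 0.68, 0.53, 0 and 0 at the bound. In that comparison 3 members of complex IV and 5 of complex V were low in both groups and set to 0. The plot of log2 fold changes by complex shows the wide spread within complexes III, IV and V.

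**Figure D3:**
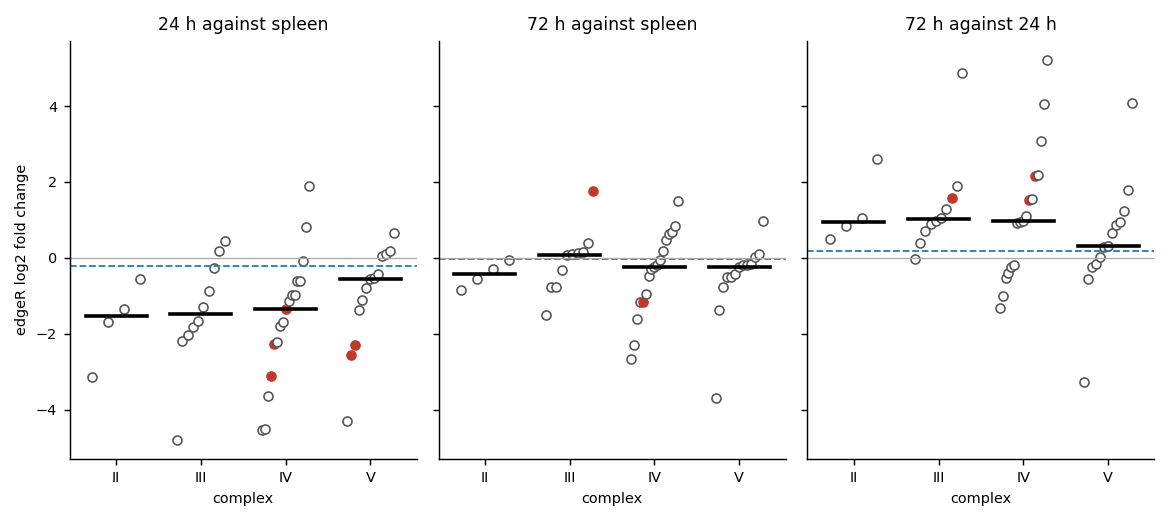
Log2 fold change of each tested member (circles) by complex in the 3 comparisons, with called members in red, a black bar at the median of the complex and a dashed line at the median of all tested genes. At 24 hours the medians of complexes II, III and IV lie between -1.52 and -1.34 and that of complex V at -0.55.

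In complex II, Sdha (the flavoprotein that oxidizes succinate) read 23.7, 18.1 and 14.8 CPM in the spleen, 17.7, 9.0, 8.49 and 16.1 CPM at 24 hours and 16.8, 12.4, 22.0, 23.6 and 16.2 CPM at 72 hours. The 3 groups overlapped (24 hours against the spleen: log2 fold change -0.55, SE 0.38, adjusted p = 0.37). Sdhb, the iron-sulfur subunit, read 9.28, 6.53 and 4.50 CPM in the spleen, 3.15, 4.20, 2.12 and 0.73 CPM at 24 hours and 3.80, 2.76, 7.43, 9.73 and 3.89 CPM at 72 hours. Its 24-hour values lay below all spleen values but the test was not passed (log2 fold change -1.35, SE 0.62, adjusted p = 0.17). Sdhd, a membrane anchor, read 11.6, 6.89 and 4.50 CPM in the spleen, 5.68, 1.20, 2.12 and 0 CPM at 24 hours and 3.80, 1.73, 5.57, 2.78 and 7.14 CPM at 72 hours. The other anchor, Sdhc, had 0, 1, 0 and 0 counts at 24 hours and 2, 6 and 8 in the spleen. Summed over the complex, the spleen libraries read 45.5, 33.7 and 26.4 CPM, the 24-hour libraries 26.5, 15, 12.7 and 16.8 CPM, and the 72-hour libraries 24.9, 19.3, 36.2, 38.2 and 27.3 CPM. The highest 24-hour sum lay just above the lowest spleen sum, and the other 3 lay below all spleen sums.

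In complex III, mt-Cytb (cytochrome b, its mitochondrially encoded core) was higher in 72-hour neutrophils than in either other group. It read 40.4, 30.5 and 19.6 CPM in the spleen, 29.0, 36, 29.0 and 40.9 CPM at 24 hours and 41.2, 89.5, 143, 103 and 129 CPM at 72 hours. The first 72-hour library lay close to the highest spleen and 24-hour values and the other 4 lay far above them. The log2 fold change was 1.75 against the spleen (SE 0.35, adjusted p = 0.0027) and 1.59 against 24 hours (SE 0.32, adjusted p = 0.0074), and both calls were kept under each of the 22 other fits of that gene. Of the tested genes 5.33% were called at 72 hours against the spleen (2.63% higher) and 4.49% at 72 against 24 hours (1.65% higher and 2.84% lower).

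No nuclear gene of complex III was called in any comparison. Uqcrh, the hinge subunit, read 9.74, 11.6 and 5.15 CPM in the spleen, 1.89, 2.40, 8.49 and 1.46 CPM at 24 hours and 6.51, 2.76, 12.1, 9.03 and 4.54 CPM at 72 hours. Uqcrc2, a core protein, read 12.1, 9.42 and 5.15 CPM in the spleen, 5.68, 3.60, 0.71 and 0.73 CPM at 24 hours and 4.88, 9.67, 4.95, 2.08 and 3.24 CPM at 72 hours. Neither was called, with adjusted p = 0.19 and 0.11 at 24 hours against the spleen. Uqcrb, the ubiquinone-binding protein, had no count in any of the 4 libraries at 24 hours, against 6, 5 and 1 counts in the spleen and 1, 8, 9, 1 and 2 at 72 hours, and was not called (adjusted p = 0.067 at 24 hours against the spleen). The nuclear members of complex III summed to 35.4 ± 17.1 CPM in the spleen (SD, n = 3), 14.3 ± 4.66 CPM at 24 hours (n = 4) and 27.3 ± 3.4 CPM at 72 hours (n = 5), whereas all of its members summed to 65.5 ± 26.3, 48.0 ± 7.76 and 129 ± 40.5 CPM. mt-Cytb was 46.0%, 70.2% and 78.7% of that total. Cycs, cytochrome c, held 28 counts over the 12 libraries, was at 0 in 3 of the 24-hour libraries and was not called.

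In complex IV, mt-Co1 rose between the liver time points. The 72-hour libraries read 69.4, 139, 173, 186 and 185 CPM, all above the 24-hour values and overlapping those of the spleen (log2 fold change 1.53 against 24 hours, SE 0.35, adjusted p = 0.016; 0.19 against the spleen, SE 0.36, adjusted p = 0.88). Without the 72-hour libraries 2 and 3, which had 1.91% and 1.98% of reads unaligned against 49.6% to 50.7% in the other 10, the adjusted p of mt-Co1 was 0.058, and without the first 24-hour library it was 0.074. Of the other mitochondrially encoded genes, mt-Co2 and mt-Co3 (the other core subunits of complex IV) held 25 and 16 counts in all, and mt-Atp6 and mt-Atp8 (membrane subunits of complex V) held 2 and 3. mt-Co2 read 5.10, 3.26 and 0 CPM in the spleen, 0, 0.60, 0 and 0 CPM at 24 hours and 0, 0.69, 0, 0 and 1.3 CPM at 72 hours. mt-Co3 read 4.18, 0.73 and 0 CPM in the spleen, was at 0 in all 24-hour libraries and read 0, 0.69, 0.62, 0 and 0.65 CPM at 72 hours. mt-Atp8 was counted only in the second spleen library (1.09 CPM), and mt-Atp6 in that library (0.36 CPM) and in the third 72-hour library (0.31 CPM).

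Cox6c, a small nuclear subunit of complex IV, was lower in 72-hour neutrophils than in the spleen. It read 149, 150.4 and 110.3 CPM in the spleen, 90.2, 106, 77.1 and 83.2 CPM at 24 hours and 65.6, 62.5, 47.7, 71.6 and 59.7 CPM at 72 hours, and none of the 3 groups overlapped another. Against the spleen the log2 fold change was -0.62 at 24 hours (SE 0.24, adjusted p = 0.10) and -1.15 at 72 hours (SE 0.22, adjusted p = 0.0022), and the latter call was kept in all 21 other fits that held the gene. Of the tested genes 2.71% were called lower at 72 hours. Cox6c shares 250 of its 3567 exon bases with Vps13b on the opposite strand, a gene that read 8.74, 7.50 and 5.40 CPM on average in the 3 groups.

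Cox8a, the common isoform of the smallest complex IV subunit, read 4.64, 4.71 and 3.86 CPM in the spleen, 2.52, 0.60, 0.71 and 1.46 CPM at 24 hours and 3.25, 6.91, 8.05, 4.17 and 7.79 CPM at 72 hours. It was higher at 72 than at 24 hours without overlap (log2 fold change 2.16, SE 0.61, adjusted p = 0.045), on 1 to 4 counts per 24-hour library. Of the 12 fits with a library removed, 10 did not call it, with an adjusted p of up to 0.12. With Cox8a, mt-Co1 and mt-Cytb, 3 of the 45 tested members were called between the liver time points, each higher at 72 hours, beside 4.49% of all tested genes called in either direction and 1.65% called higher. Between the liver time points 6 tested members were higher at 72 hours without overlap (4.49% of all tested genes were). Cox6c alone was lower without overlap (5.02% of all tested genes were). Of the 6, Cox8a, mt-Co1 and mt-Cytb would pass the filter without the 72-hour libraries. Uqcrb, Cox7a2 and Cox7b had no count at 24 hours and passed the filter only with the 72-hour libraries, which bears on their higher values there. Against the spleen, 1 member was higher at 72 hours without overlap (mt-Cytb, 5.59% of all tested genes) and 3 were lower (Cox6b2, Cox6c and Cox7a1, 6.37%).

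The tissue isoforms of complex IV were mostly low and did not share a direction. Cox7a1, the heart and muscle isoform of subunit VIIa, read 12.1, 10.9 and 6.11 CPM in the spleen, 5.68, 8.40, 2.12 and 8.75 CPM at 24 hours and 2.71, 3.11, 3.10, 2.78 and 3.89 CPM at 72 hours, below all spleen values (log2 fold change -1.61, SE 0.49, adjusted p = 0.058). Cox6b2, the testis isoform of subunit VIb, read 2.78, 3.26 and 2.89 CPM in the spleen, 0.63, 2.40, 2.12 and 0.73 CPM at 24 hours and 2.17, 0, 0.62, 0 and 0 CPM at 72 hours (log2 fold change -2.30, SE 0.97, adjusted p = 0.21 at 72 hours against the spleen). Cox4i2, the isoform known from lung, read 0.46, 1.81 and 0.32 CPM in the spleen, 3.15, 0.60, 4.95 and 5.11 CPM at 24 hours and 3.80, 4.15, 2.48, 0.69 and 1.3 CPM at 72 hours, and the groups overlapped (log2 fold change 1.90, SE 0.91, adjusted p = 0.19 at 24 hours against the spleen). Cox6a2 read 2.71, 1.04, 3.71, 4.86 and 4.54 CPM at 72 hours and overlapped both other groups (adjusted p = 0.19 for 72 against 24 hours). Cox8b read 0.54 and 0.69 CPM in 72-hour libraries 1 and 4 and 0 in all others.

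Cox7c, subunit VIIc, ranked behind mt-Co1 and Cox6c in complex IV. It read 13.0, 24.7 and 28.3 CPM in the spleen and 32.2, 33.6, 52.3 and 38.7 CPM at 24 hours, above all spleen values without passing the test (log2 fold change 0.82, SE 0.32, adjusted p = 0.11), and 32.0, 39.4, 37.1, 38.2 and 23.4 CPM at 72 hours. The nuclear members of complex IV summed to 218 ± 34.6 CPM in the spleen, 155 ± 13.1 CPM at 24 hours and 140.1 ± 6.75 CPM at 72 hours (SD, n = 3, 4 and 5), and all of its members to 354 ± 108, 207 ± 24.7 and 291 ± 53.2 CPM. The sum of all members was thus higher at 72 than at 24 hours, and the nuclear sum was not.

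In complex V the sum was set by Atp5f1, the b subunit of the peripheral stalk, which made up 75.7% of it in the spleen, 85.9% at 24 hours and 79.5% at 72 hours. Without Atp5f1 the sum was 129 ± 36.3 CPM in the spleen, 104 ± 17.2 CPM at 24 hours and 111 ± 7.64 CPM at 72 hours (SD, n = 3, 4 and 5). Atp5f1 read 363, 397 and 439 CPM in the spleen, 807, 631, 489 and 596 CPM at 24 hours and 356, 445, 338, 495 and 524 CPM at 72 hours. The 24-hour values lay above all spleen values, and the test was not passed (log2 fold change 0.66, SE 0.23, adjusted p = 0.067 against the spleen; adjusted p = 0.11 for 72 against 24 hours). Upper-quartile scaling and the Wald test of DESeq2 called it higher at 24 hours. Its exons overlap those of Wdr77 by 337 bases on the opposite strand, and Wdr77 read 4.82, 5.69 and 4.94 CPM on average.

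Atp5b, the catalytic beta subunit, overlapped in the 3 groups. It read 41.3, 48.6 and 34.7 CPM in the spleen, 39.7, 49.2, 58.7 and 40.9 CPM at 24 hours and 39.0, 43.9, 39.3, 42.4 and 47.4 CPM at 72 hours (24 hours against the spleen: log2 fold change 0.18, SE 0.26, adjusted p = 0.71). Atp5j read 41.8, 32.3 and 27.0 CPM in the spleen, 50.5, 9.6, 34.7 and 43.8 CPM at 24 hours and 24.9, 43.2, 32.2, 23.6 and 21.4 CPM at 72 hours, with overlap throughout. Atp5c1 read 2.71, 4.49, 3.10, 6.95 and 3.89 CPM at 72 hours and Atp5h 3.80, 2.07, 3.71, 9.73 and 3.89 CPM, and neither was called in the comparisons that involve 72 hours. Atp5g1, Atp5g2 and Atp5g3 all encode the c subunit of the membrane ring. Atp5g3 read 4.18, 3.99 and 0.64 CPM in the spleen, 2.52, 3.0, 2.12 and 0 CPM at 24 hours and 2.71, 1.38, 3.41, 2.78 and 1.95 CPM at 72 hours, while Atp5g2 and Atp5g1 held 9 and 5 counts over all libraries. Atp5g2 was counted in 2 spleen libraries (1.09 and 0.96 CPM) and in the fourth 24-hour library (2.19 CPM), and Atp5g1 in the third spleen library (0.32 CPM) and in 3 of the 72-hour libraries (0.54, 1.39 and 0.65 CPM).

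**Figure D4:**
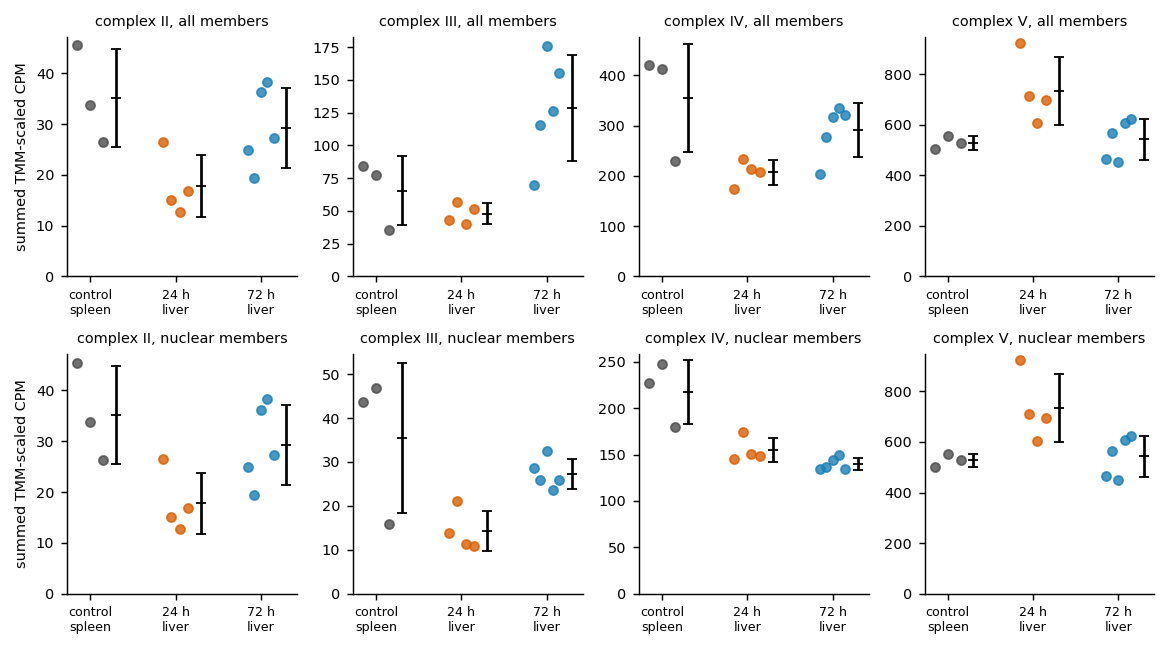
Summed TMM-scaled CPM of complexes II to V in each library, for all members (top) and for nuclear members (bottom), with the mean and SD beside the points of each group. For all members, complex V was highest at 24 hours (734 ± 135 CPM) and complex III at 72 hours (129 ± 40.5 CPM). Atp5f1 made up 85.9% of the former and mt-Cytb 78.7% of the latter.

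The ratio between complexes within a library does not depend on the scaling between libraries. The log2 ratio of complex II to complex V was -4.32 to -3.47 in the spleen, -5.57 to -5.12 at 24 hours and -4.87 to -3.64 at 72 hours, so that the 24-hour libraries lay below all others, with group means 1.47 lower than the spleen. Complex IV over complex V was -1.20 to -0.25 in the spleen, -2.41 to -1.50 at 24 hours and -1.18 to -0.50 at 72 hours. Without the highest member of each complex (Sdha, mt-Cytb, mt-Co1 and Atp5f1) the 24-hour difference from the spleen was -1.86 for complex II over V and -0.23 for complex IV over V. The former value depended on the fourth 24-hour library, where complex II without Sdha was 0.73 CPM (1 count), and it was -1.11 without that library. For complex IV over V the difference was -1.19 with all members, -0.97 without mt-Co1 alone and -0.45 without Atp5f1 alone. Complex III over complex IV was -2.70 to -2.33 in the spleen, -2.41 to -2.01 at 24 hours and -1.55 to -0.85 at 72 hours, a rise of 1.26 in the mean from the spleen to 72 hours that became 0.42 without the 4 highest members and 0.059 when spleen library 3 was left out as well. These ratios are descriptions and were not tested.

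**Figure D5:**
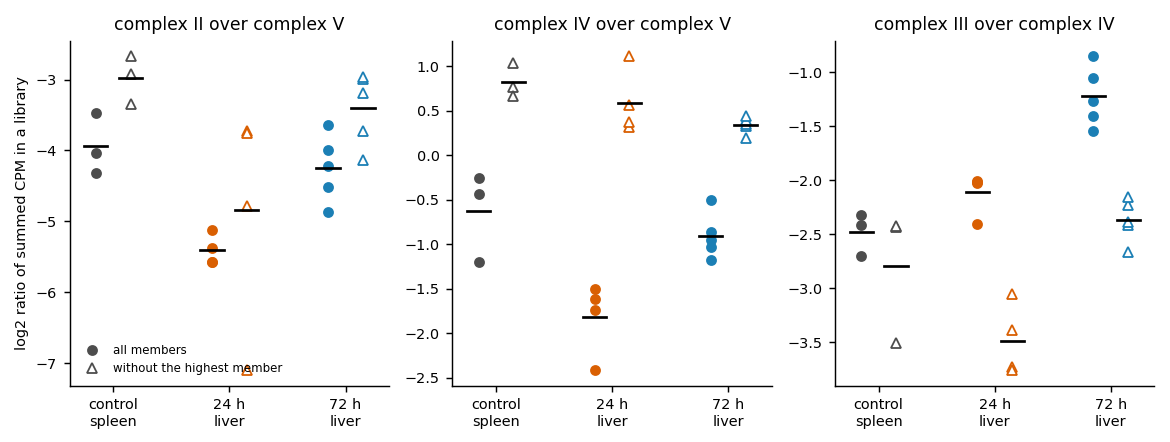
Log2 ratio of the summed CPM of complex II to V, IV to V and III to IV within each library, for all members (filled circles) and without the highest member of each complex (open triangles), with bars at the group means. With all members, the 24-hour libraries are lowest for II over V and IV over V, and the 72-hour libraries are highest for III over IV.

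Other gene lists of the same organelle were read beside the complexes. Of the 45 complex I subunits 36 were tested; 2 were higher and 1 lower at 24 hours against the spleen, 1 higher and 1 lower at 72 hours, and 3 higher at 72 than at 24 hours. Of all tested genes 9.75%, 5.33% and 4.49% were called in these comparisons, which are also the shares to read beside the lists that follow. The 3 higher at 72 than at 24 hours were the mitochondrially encoded mt-Nd1, mt-Nd2 and mt-Nd4, with log2 fold changes of 1.67, 1.27 and 1.34 (adjusted p = 0.037, 0.042 and 0.041), and mt-Nd2 was also higher than in the spleen at 24 and 72 hours (1.61 and 2.88). Ndufa2, an accessory subunit, was higher at 24 hours (1.0, adjusted p = 0.048), and Ndufv3 was lower at 24 and 72 hours (-1.01 and -1.55, adjusted p = 0.039 and 0.0016). The median of the tested complex I members was -0.78 at 24 hours, between those of complexes IV and V.

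Among 37 assembly factors of complexes II to V, 23 were tested. Sdhaf1, which serves the iron-sulfur subunit of complex II, was higher at 24 and 72 hours against the spleen (log2 fold changes 2.95 and 3.39, adjusted p = 0.030 and 0.013), with 1733 exon bases shared with an opposite-strand gene. Cox15, a heme A synthesis enzyme, and Coa4 were lower at 72 hours (-0.86 and -2.07, adjusted p = 0.022 and 0.021). Of 11 tested genes of mitochondrial biogenesis, Gabpa alone was called, at 24 hours. None of the 10 tested citrate cycle genes was called against the spleen by edgeR, and Mdh2 (malate dehydrogenase) was higher at 72 than at 24 hours (1.54, adjusted p = 0.025). All 10 nevertheless had a log2 fold change below 0 at 24 hours against the spleen, with a median of -0.86. The citrate cycle list summed to 67.7 to 73.9 CPM in the spleen, 31.8 to 42.6 CPM at 24 hours and 53.5 to 90.7 CPM at 72 hours. Among 5 tested carriers and porins, Vdac1, the outer membrane channel, was lower at 72 hours against the spleen (-1.58, adjusted p = 0.049). At 24 hours against the spleen the median was -0.94 for carriers and porins, -0.54 for assembly factors and -0.14 for biogenesis genes. The median of all tested genes was -0.23, and that of those under 10 CPM was -0.50.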

How the data were processed

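RNA of sorted neutrophils was sequenced in 3 spleen samples and in 4 and 5 liver samples taken 24 and 72 hours after CCl4. The authors aligned the reads to GRCm38 with STAR 2.7.9a (per the submitters' processing notes), counted them with HTSeq-count and deposited raw counts per gene for the 12 libraries in 1 table, with no normalization. The strand option is not given in the sources used here. All columns were mapped to samples by name. The summary rows (reads on no gene, ambiguous, of low quality, unaligned or not unique) entered neither library sizes nor tests, and those on no gene were 96.8% to 97.3% of the uniquely aligned reads.

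The counts were analysed in R 4.3.3. Genes above 1 CPM in at least 3 libraries were kept (12488), TMM factors were computed, and 1 quasi-likelihood fit of edgeR 4.0.16 over the 12 libraries gave the 3 comparisons, with Benjamini-Hochberg adjustment over all tested genes. Calls needed an adjusted p under 0.05 and a log2 fold change of 0.5 or more in size. SE is the fold change divided by the square root of F. The fit was also run on simulated data with known changes, drawn from the means and dispersions of the main fit, and part of those changes was not called. A member that was not called is not shown to be unchanged. Gene positions, strands and overlaps came from GENCODE M21, in which 48349 of the rows were matched.

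The members and lists were chosen with earlier results of these data known. Values in every library are given for called members, the 3 highest of each complex, mitochondrially encoded members, tissue isoforms of complex IV and the c-subunit genes. Alternatives were limma 3.58.1, DESeq2 1.42.0, other scalings and filters, other fold limits, 2 groups per fit, a replicate block, genes with no opposite-strand gene, leaving out libraries, and sums per kilobase, of nuclear members or without the highest member. Ratios between complexes without single libraries, mt-Co1 or Atp5f1 were added after seeing the data.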

Additional observations from a re-analysis of the deposited data

Results flagged for a closer look

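In groups of 4 and 5 libraries, a sample was singled out when its gap to the nearest other sample exceeded Dixon's 95% critical share of the group's range. The rule was applied to 70 groups of values and gave 9 flags, where chance alone flags about 1 group in 20. That rate does not hold for 4 of the 9, in which 1 library had a count and all others of the group had none. In the 24-hour group, mt-Co1 read 27.8 CPM in replicate 1 against 58.2 to 62.9 CPM in the others, and Uqcrh read 8.49 CPM in replicate 3 against 1.46 to 2.40 CPM. Cox6a2 read 2.92 CPM and Atp5g2 2.19 CPM in 24-hour replicate 4, and mt-Co2 read 0.60 CPM in 24-hour replicate 2, each against 0 in the other 3 libraries. In the 72-hour group, Atp5h read 9.73 CPM in replicate 4 against 2.07 to 3.89 CPM, Cox6b2 read 2.17 CPM in replicate 1 against 0 to 0.62 CPM, and mt-Atp6 read 0.31 CPM in replicate 3 against 0 in the others. Ambiguous reads came to 147308 in 24-hour replicate 4 against 14769 to 18962 in the other 24-hour libraries.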

How the results depend on the processing

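No direction of a called member was reversed under any alternative. The 2 calls of mt-Cytb and the 72-hour call of Cox6c were kept in every fit that held the gene. At 24 hours against the spleen, 5 members were called, against 3 with limma-voom, 3 with only the 2 groups compared and 0 among genes with no opposite-strand gene. That last setting left 1 member called in each of the other comparisons (2 and 3 with all genes). At 72 against 24 hours the DESeq2 Wald test called 5 members, and 1 was called without 72-hour replicates 2 and 3 together. Leaving out 1 library gave 0 to 5 calls at 24 hours against the spleen and 1 to 4 at 72 against 24 hours. Deviations of libraries with the same replicate number had correlations of -0.12 to 0.13 across groups. The labels do not say whether these numbers pair the samples, and a shared batch was not tested. With the replicate block 4, 2 and 2 members were called in the 3 comparisons, Cox6b1 and Cox8a losing their calls (adjusted p = 0.054 and 0.11). The causes of these shifts were not tested.

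Medians of complexes moved as follows by more than their spread between libraries. At 24 hours against the spleen, complex III was -0.85 with limma-voom and -0.86 among genes with no opposite-strand gene, complex IV -0.82 with filterByExpr and complex V -0.97 with no filter. From 24 to 72 hours, filterByExpr gave 0.36 for complex IV and 0.77 for complex V, and no filter gave 0.72 for complex V. Without 1 library, complex II ranged from -2.08 to -1.18 and complex V from -1.17 to -0.34 at 24 hours against the spleen. At 72 hours complex III ranged from -0.47 to 0.35 and had no settled sign (0.08 with all libraries): it was below 0 without spleen replicate 3, without each of 72-hour replicates 2 to 5, without 2 and 3 together, with filterByExpr (-0.34) and with the replicate block (-0.32). Complex V ranged from -0.67 to -0.027. Between the liver groups complex II ranged from 0.70 to 1.5, complex IV from 0.73 to 1.51 and complex V from 0.28 to 0.71.

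With nuclear members alone the log2 ratio of the summed level became -1.31 at 24 hours and -0.37 at 72 hours for complex III against the spleen, and -0.64 at 72 hours against the spleen and -0.14 from 24 to 72 hours for complex IV. Without the highest member of each complex, the differences in log2 ratio at 24 hours against the spleen were -1.63 for II over IV, -1.86 for II over V, -0.69 for III over IV and -0.23 for IV over V. At 72 hours against the spleen they were -0.36 for II over III, 0.42 for III over IV and -0.057 for III over V, and from 24 to 72 hours 0.58 for II over III, 1.69 for II over IV, 0.87 for III over V and -0.25 for IV over V. Leaving out 24-hour library 4 as well, an alternative chosen after seeing the data like those that follow, gave -0.88 for II over IV and -1.11 for II over V at 24 hours against the spleen, and -0.078 for II over III, 0.94 for II over IV and 0.69 for II over V from 24 to 72 hours. Leaving out spleen library 3 in its place gave 0.059 for III over IV at 72 hours against the spleen. For IV over V, leaving out Atp5f1 alone gave -0.45 at 24 hours against the spleen and 0.37 from 24 to 72 hours, and leaving out mt-Co1 alone gave 0.30 from 24 to 72 hours. Depth limits most members: several calls rest on under 10 counts per 24-hour library.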
